A study of Mus musculus with 6 samples.

Results

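Toll-like receptors and NOD proteins are the receptors by which a keratinocyte registers bacteria, and 10 genes of this kind were followed here: Tlr1, Tlr2, Tlr3, Tlr4, Tlr5, Tlr6, Tlr9, Nod1, Nod2 and Cd14. They were taken by name from the 27845 gene names on the array, and the set was chosen with earlier results of these data known. The array carried 12 probes for them, 1 probe each for 8 genes and a pair each for Tlr3 and Tlr4. Of the 10 genes, 8 gave enough signal to be tested, while Tlr1 and Tlr6 did not. The name of the set is loose for Tlr3, a receptor of double-stranded RNA that is best known for viruses.

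The RNA came from 6 cultures of primary mouse keratinocytes, the cells that make up most of the epidermis, prepared together with hair follicle buds from the skin of newborn wild-type mice. Every culture, controls included, carried the v-ras-Ha oncogene, and the labels give an adenovirus infection with 10 viral particles for each cell and 4 ug/ml Polybrene. Anakinra is a recombinant form of the natural antagonist of the interleukin-1 (IL-1) receptor. It was added to 3 cultures at 5 ug/ml, 5 hours after transduction, and replaced after 2 days, while 3 cultures received PBS, and RNA was taken 3 days after treatment began. The comparison asks which genes of ras-expressing keratinocytes depend on IL-1 receptor signalling. The labels do not say whether the cultures came from separate animals, so the p-values cover only how far these 6 cultures scattered, and that scatter may be technical.

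The sensors divide by where they sit and what they bind. TLR2 recognises bacterial lipoproteins at the cell surface as a dimer with TLR1 or TLR6, TLR4 recognises lipopolysaccharide with the help of CD14, and TLR5 recognises flagellin, whereas TLR3 and TLR9 lie in endosomes and bind double-stranded RNA and CpG-rich DNA. NOD1 and NOD2 are cytosolic and bind fragments of bacterial peptidoglycan, NOD1 those with diaminopimelic acid and NOD2 muramyl dipeptide. The Toll-like receptors signal through MYD88 or TICAM1, the NOD proteins through the kinase RIPK2, and most of these routes lead to NF-kB, as does the IL-1 receptor, which shares MYD88 with the Toll-like receptors.

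The deposited scanner files give each spot's position on mouse build mm8. The Nod2 probe lay at chr8:91578376-91578430 and the Tlr2 probe at chr3:83922349-83922408. The Nod1 probe lay at chr6:54853591-54853650, the Tlr5 probe at chr1:184812746-184812805 and the Tlr9 probe at chr9:106084749-106084808. The Tlr3 probes lay at chr8:46895472-46895531 and chr8:46895192-46895251, and the Tlr1 and Tlr6 probes at chr5:65204011-65204070 and chr5:65232261-65232320. The probe that stood for Tlr4 lay at chr4:66329051-66329109. The other one named Tlr4 lay at chr4:66415883-66415942, and the starts of the pair were 86832 bases apart, whereas the RefSeq gene spans 19031 bases.

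Because NF-kB is a shared end point of these receptors, the 250 bases before the transcription start were searched for the kappa-B consensus, the site bound by NF-kB. They were also searched for TGANTCA, a pattern with any base at N that takes in the site bound by AP-1 but is wider. Both searches covered both strands. RefSeq promoter windows of build GRCm38.p6 matched 8 of the 10 genes, in 11 windows. The kappa-B consensus was present in 7.25% of all 32851 windows of this length and TGANTCA in 6.75%. Among the 8 genes, Tlr2 and Tlr3 held the kappa-B consensus and Tlr9 held TGANTCA. The windows below are those of the 2 sensors that fell under Anakinra, Nod2 and Tlr2, and of Tlr3, the other gene with a kappa-B match. Each runs 5′ to 3′ on the strand of the gene and ends at the base before its start, with the kappa-B matches in capitals.
Nod2, chr8:88647097-88647346, plus strand: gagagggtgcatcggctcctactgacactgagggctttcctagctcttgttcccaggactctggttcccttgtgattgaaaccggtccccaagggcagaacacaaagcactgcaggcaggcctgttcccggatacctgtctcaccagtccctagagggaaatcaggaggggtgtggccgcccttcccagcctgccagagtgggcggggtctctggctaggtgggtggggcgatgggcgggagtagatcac
Tlr2, chr3:83841609-83841858, minus strand: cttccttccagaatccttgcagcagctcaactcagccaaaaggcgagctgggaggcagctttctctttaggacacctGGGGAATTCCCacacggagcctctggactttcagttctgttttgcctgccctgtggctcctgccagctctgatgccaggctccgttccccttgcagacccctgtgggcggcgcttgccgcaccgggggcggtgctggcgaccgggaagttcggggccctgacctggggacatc
Tlr3, chr8:45410381-45410630, minus strand: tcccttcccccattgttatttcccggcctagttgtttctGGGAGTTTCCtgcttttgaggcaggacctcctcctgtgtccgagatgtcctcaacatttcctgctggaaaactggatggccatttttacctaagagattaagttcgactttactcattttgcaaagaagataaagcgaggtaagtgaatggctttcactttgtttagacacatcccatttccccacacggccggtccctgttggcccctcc
The capitals in the Tlr2 window span 173 to 163 bases before the start and hold 3 overlapping matches, counted over both strands. The match in the Tlr3 window lay 211 to 202 bases before the start, and the Nod2 window held neither sequence. A match describes the letters of the window, and binding was not measured.

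Signals are given as a percentage of the 75th percentile of the same array, which was 1002, 1087 and 1065 on Anakinra arrays 1, 2 and 3 and 864, 987 and 1006 on PBS arrays 1, 2 and 3. Changes are differences of the log2 of these scaled signals, Anakinra minus PBS, with the standard error (SE). Pairs of arrays correlated at 0.957 to 0.983 within Anakinra and at 0.995 to 0.997 within PBS. Anakinra 2 stood apart, with 86.5% of its spots well above background, against 56.1% and 55.6% on the other Anakinra arrays and 62.5% to 71.0% on the PBS arrays. Weights that limma gave the arrays by their scatter were low for Anakinra 2 (0.305) and also for Anakinra 3 (0.346). The other arrays had weights of 1.12 to 3.27. No spot was saturated. The arrays lay on 2 slides, Anakinra 1 with PBS 2 and 3 on slide 1, and Anakinra 2 and 3 with PBS 1 on slide 2. Any difference within a slide therefore rests on 1 array on one side. The main fit had no term for slide. Of 16472 genes tested, 160 were higher and 132 lower under Anakinra by limma at an adjusted p under 0.05. With arrays scaled to their medians these counts were 8 and 49, and the median change of all genes was -0.32 instead of 0.01.

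Expression of Nod2 and Tlr2 fell under Anakinra, and no other sensor passed the test in either direction. Nod2 fell 3.85-fold and Tlr2 fell 2.09-fold. These 2 of 8 tested sensors compare with 1.77% of all tested genes called, 0.801% lower and 0.971% higher. The groups did not overlap for 5 of the 8 sensors (Nod2, Tlr2, Cd14, Nod1 and Tlr5), against 26.3% of all tested genes. The same 5 had an unadjusted limma p under 0.05, against 16.1% of all tested genes. Fitted probe by probe over 24973 probes, of which 8 were sensor probes, limma again called the Nod2 and Tlr2 probes lower, against 0.501% of all probes lower and 0.609% higher. The groups did not overlap for 5 of these 8 probes, against 24.6% of all. The changes ran both ways, with a median of -0.07 over the 8 sensors and 0.01 over all genes.

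**Figure D1:**
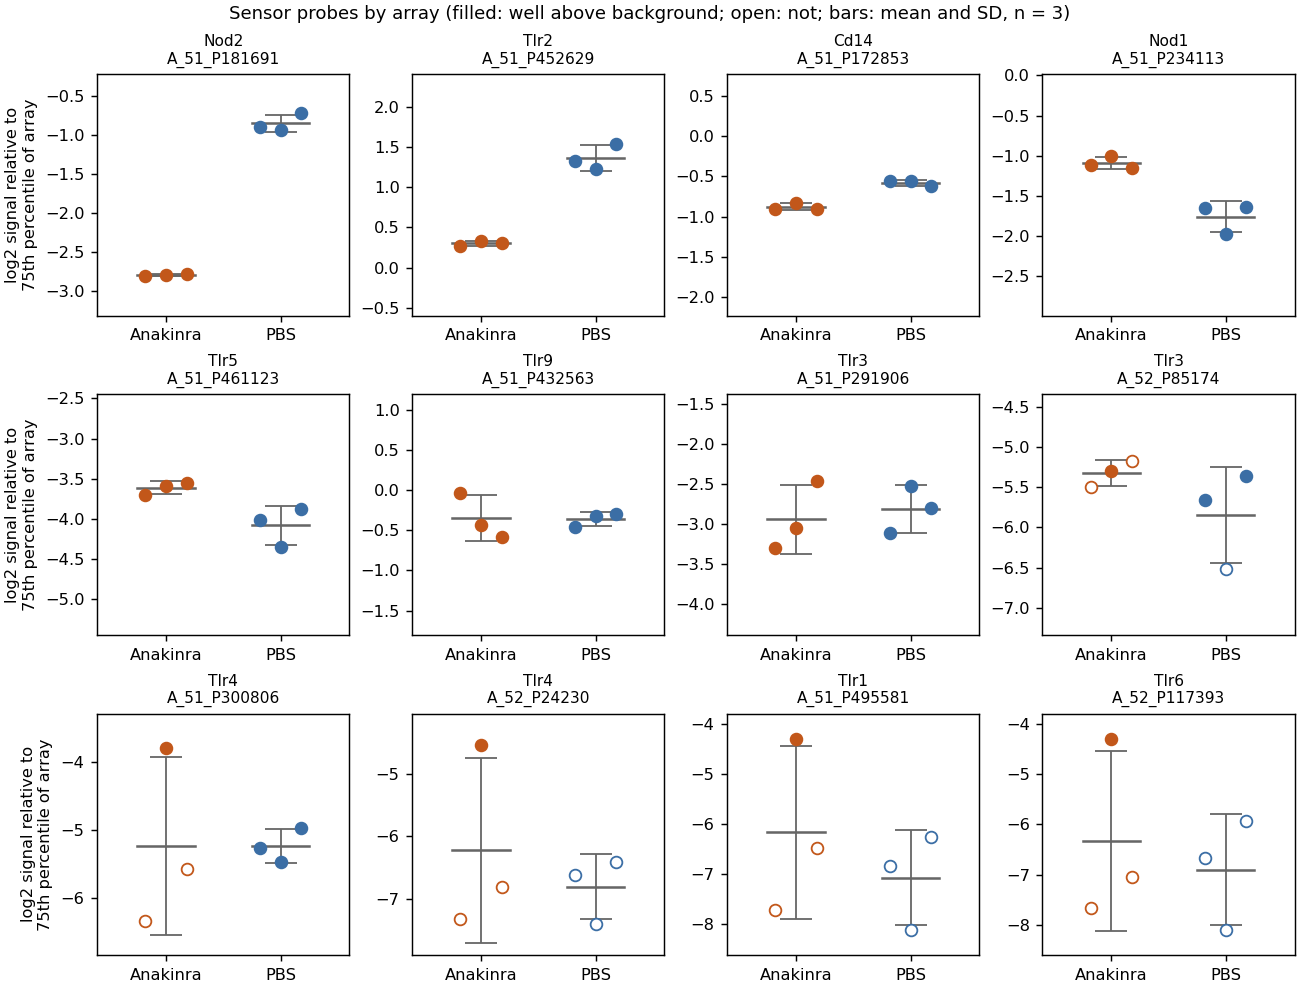
Scaled log2 signal of all 12 sensor probes by array, Anakinra left of PBS, with the mean and SD of 3 arrays; filled points were well above background and open points were not. The vertical span differs between panels. Nod2 and Tlr2 lie lower in all 3 Anakinra arrays, and Tlr1, Tlr6 and the second Tlr4 probe have 1 filled point each, on Anakinra 2.

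Among the cytosolic sensors, Nod2 had 14.2%, 14.5% and 14.5% of the 75th percentile on the Anakinra arrays, against 54.0%, 52.4% and 60.6% on the PBS arrays. The Anakinra cultures lay almost on top of each other and all of them were far below the lowest PBS culture. On the log2 scale Nod2 averaged -2.79 ± 0.02 in Anakinra and -0.85 ± 0.11 in PBS (SD, n = 3 each). The change was -1.95 ± 0.08 (SE, 95% interval -2.14 to -1.75), with a limma adjusted p of 0.00196. Only 20 of the 16472 tested genes had a lower change. The change was -1.98 between the arrays of slide 1 and -1.90 between those of slide 2, each with 1 array on one side. Without Anakinra 2 the change was -1.95, with a limma adjusted p of 0.00739, the lowest of the fits that left out 1 array. Over all such fits the change ran from -1.99 to -1.88 and the limma adjusted p reached 0.0486.

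Nod1, the other cytosolic sensor, had 46.2%, 49.9% and 44.8% on the Anakinra arrays, against 31.8%, 25.4% and 32.0% on the PBS arrays. Every Anakinra value was above every PBS value, the opposite order to Nod2. The change of 0.67 ± 0.12 (SE, 95% interval 0.37 to 0.96) had a limma adjusted p of 0.0692 and did not pass. When only genes above background on all 6 arrays were tested, the limma adjusted p of Nod1 was 0.0319. It did not pass under any of the other 18 alternatives, with 0.34 (limma adjusted p 0.867) under per-array median scaling, 0.248 as the adjusted p with no filter and 0.192 with slide as a block.

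Among the receptors of the cell surface, Tlr2 had 120%, 126% and 123% on the Anakinra arrays, against 250%, 234% and 291% on the PBS arrays. The groups were widely separated and the PBS cultures were the more variable. Tlr2 averaged 0.30 ± 0.03 in Anakinra and 1.36 ± 0.16 in PBS on the log2 scale (SD, n = 3 each). The change was -1.06 ± 0.10 (SE, 95% interval -1.31 to -0.81), with a limma adjusted p of 0.0152, and 96 genes had a lower change. It was -1.11 on slide 1 and -1.01 on slide 2. The call was lost without Anakinra 1 (limma adjusted p 0.0661), Anakinra 3 (0.0597), PBS 1 (0.111) or PBS 2 (0.0893), with the change between -1.13 and -0.97 over the 6 fits that left out 1 array.

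The Tlr2 probe was printed at 10 spots on each array, so its error within an array can be seen directly. The unscaled processed signal of its spots ran from 1151 to 1271 on Anakinra 1, from 1249 to 1536 on Anakinra 2 and from 1187 to 1457 on Anakinra 3. On PBS 1 it ran from 1987 to 2379, on PBS 2 from 2180 to 2397 and on PBS 3 from 2821 to 3084. The brightest Tlr2 spot of any Anakinra array was therefore dimmer than the dimmest spot of any PBS array. The SD of log2 signal between spots was 0.048 to 0.093 on the Anakinra arrays and 0.044 to 0.082 on the PBS arrays, less than the 0.16 between the PBS cultures.

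**Figure D2:**
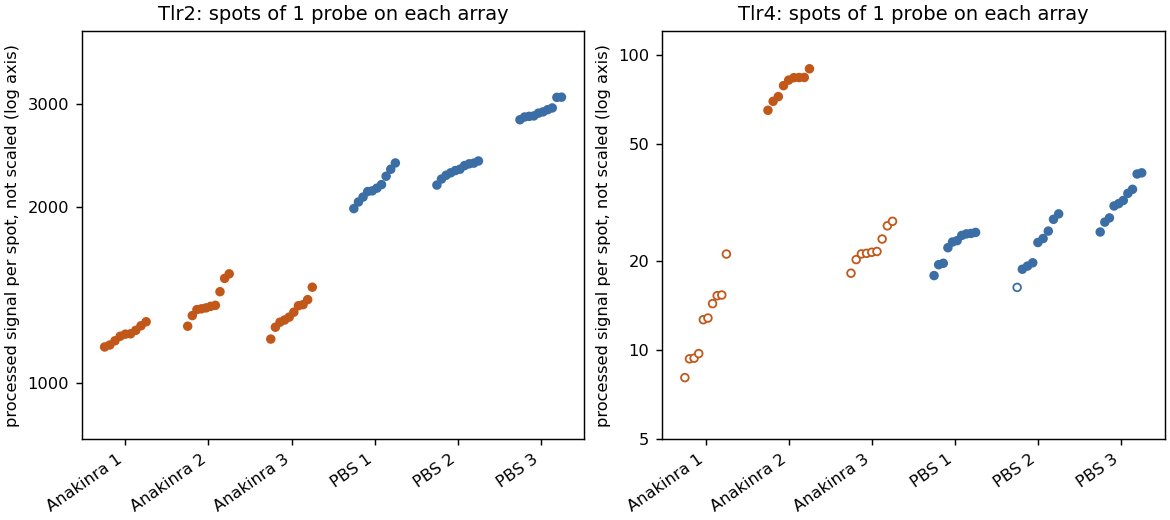
Unscaled processed signal (log axis) of each spot of the Tlr2 probe (left) and of the Tlr4 probe (right) on the 3 Anakinra and 3 PBS arrays, sorted from low to high within an array, with filled points well above background. The Tlr2 spots of the groups do not overlap, while the Tlr4 spots are bright on Anakinra 2 alone.

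Tlr1 and Tlr6, the partners of TLR2, were at the limit of the array. Tlr1 had 0.476%, 5.06% and 1.11% on the Anakinra arrays, against 0.875%, 0.362% and 1.31% on the PBS arrays. Tlr6 had 0.497%, 5.04% and 0.760% on the Anakinra arrays, against 0.982%, 0.366% and 1.64% on the PBS arrays. Both were well above background only on Anakinra 2, so neither was tested, and on the other 5 arrays their values are those of spots not well above background. The median scaled log2 signal of all probes was -3.02 on the same array, against -4.30 and -3.92 on the other Anakinra arrays and -4.20 to -3.83 on the PBS arrays. Of 10560 probes not well above background on the other 5 arrays, 51.2% were well above it on Anakinra 2. Their selection by the other 5 arrays sets this contrast in part. The median of these probes was -5.78 on Anakinra 2 on the scaled log2 scale, against -7.66 and -6.99 on the other Anakinra arrays and -8.39 to -7.72 on the PBS arrays.

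Tlr4, the receptor of lipopolysaccharide, was tested only because it was above background on all PBS arrays. Its 10-spot probe had 1.23%, 7.19% and 2.08% on the Anakinra arrays, against 2.59%, 2.25% and 3.17% on the PBS arrays. Anakinra 2 gave the highest value and Anakinra 1 the lowest, with the PBS cultures between Anakinra 2 and Anakinra 3. No spot was above background on Anakinra 1 and 3, whereas all 9 spots used on Anakinra 2 were. On the PBS arrays 10 of 10, 8 of 9 and 10 of 10 spots used were above background. The change was -0.00 ± 0.67 (SE, limma adjusted p 0.9996), with a 95% interval of -1.69 to 1.68 that leaves a wide range of changes possible. Without Anakinra 2 it was -0.72 (limma adjusted p 0.242). The second probe named Tlr4 was above background only on Anakinra 2 and was not tested.

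**Figure D3:**
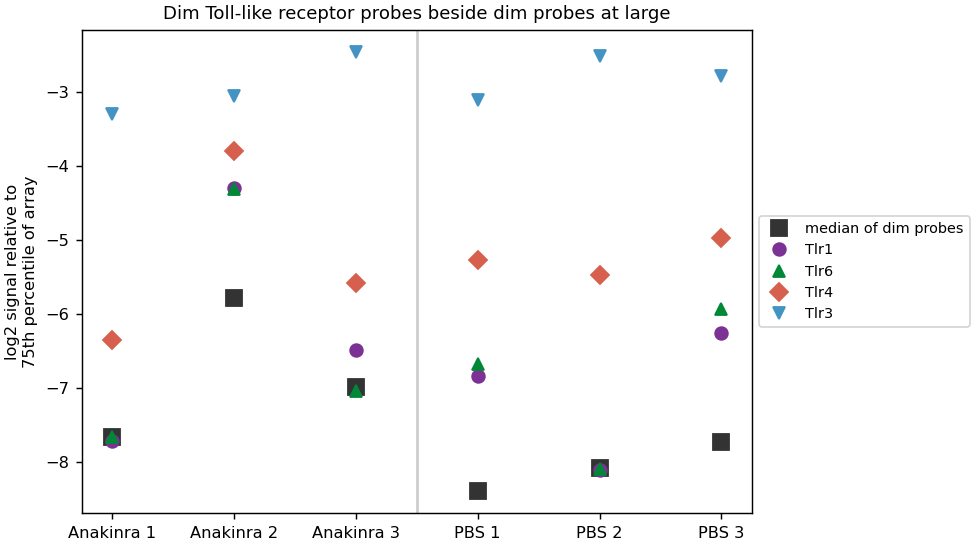
Scaled log2 signal of Tlr1, Tlr6, Tlr4 and Tlr3 on each array, beside the median of 10560 probes that were chosen as not above background on the 5 arrays other than Anakinra 2 (squares). That median and the Tlr1, Tlr6 and Tlr4 probes are all highest on Anakinra 2, while Tlr3 is not.

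Cd14, which hands lipopolysaccharide to TLR4 and lipoproteins to TLR2, had its probe at chr18:36851289-36851348. It had 53.6%, 56.4% and 53.4% on the Anakinra arrays, against 68.0%, 68.1% and 65.1% on the PBS arrays. The groups did not overlap and the difference was small beside those of Nod2 and Tlr2. The change of -0.30 ± 0.06 (SE, 95% interval -0.45 to -0.15) had a limma adjusted p of 0.0951 and did not pass. It was -0.31 on each slide.

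Tlr5, the flagellin receptor, had 7.72%, 8.32% and 8.56% on the Anakinra arrays, against 6.19%, 4.91% and 6.84% on the PBS arrays. All Anakinra values were the higher ones at this scaling. The change of 0.47 ± 0.14 (SE, 95% interval 0.12 to 0.82) did not pass (limma adjusted p 0.202), and it was -0.05 when the arrays were quantile scaled. The accession of this probe was not among those matched, and it was named by its symbol.

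The endosomal receptors showed no difference past the test. Tlr9 had 97.9%, 74.0% and 66.8% on the Anakinra arrays, against 72.4%, 80.2% and 81.1% on the PBS arrays, so the Anakinra cultures spanned the PBS ones. Its change was 0.01 ± 0.16 (SE, 95% interval -0.39 to 0.41; limma adjusted p 0.985), and the sign turned under other scalings. Tlr3 had 10.2%, 12.1% and 18.1% on the Anakinra arrays, against 11.5%, 17.4% and 14.4% on the PBS arrays. Its change was -0.13 ± 0.27 (SE, 95% interval -0.80 to 0.54; limma adjusted p 0.878). The second Tlr3 probe was above background on 1 Anakinra and 2 PBS arrays and was not tested, and its values lay between 2.22% and 2.78% in Anakinra and between 1.09% and 2.44% in PBS.

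**Figure D4:**
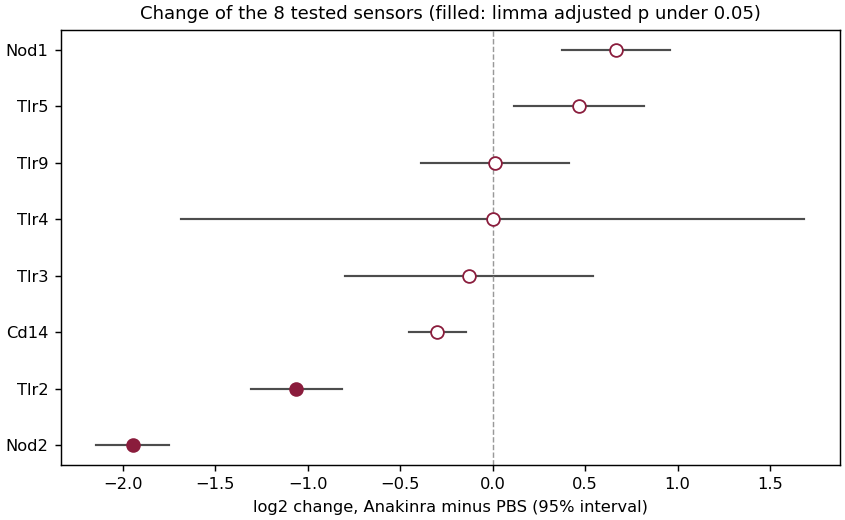
Log2 change, Anakinra minus PBS, of the 8 tested sensors with its 95% interval, filled where the limma adjusted p was under 0.05. Nod2 and Tlr2 are filled at -1.95 and -1.06, and the interval of Tlr4, from -1.69 to 1.68, is the widest.

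Over 5 lists of other genes of the sensing machinery, 48 of 74 genes were tested, 1 was called higher and none lower by limma. That is 2.08% of those tested, near the 1.77% of all tested genes, and the median change was 0.01, as over all genes. At an unadjusted p under 0.05 there were 10 of the 48, against 16.1% of all tested genes. Of the adaptors and kinases that carry the signal, 14 of 17 were tested and none passed. The smallest adjusted p in that list belonged to Sigirr, an inhibitor of IL-1 and Toll-like receptor signalling, at -0.30 ± 0.09 (limma adjusted p 0.20), and to Ticam1, the adaptor of TLR3 and TLR4, at 0.52 ± 0.17 (0.228). None of the 7 tested of 10 co-receptors and chaperones passed. Hsp90b1, a chaperone that Toll-like receptors need to fold, was at 0.34 ± 0.14 (0.329) and Cd36, a scavenger receptor that works with TLR2, at 0.31 ± 0.16 (0.430), with a negative sign for Cd36 under per-array median and quantile scaling.

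Of 16 other Toll-like and pattern receptors, 8 were tested and none passed, and their median change was -0.29. Pglyrp3 and Pglyrp2, peptidoglycan recognition proteins, were at -0.28 ± 0.12 and -0.75 ± 0.32 (limma adjusted p 0.326 and 0.344). Of 18 inflammasome sensors and other NOD-like genes, 6 were tested and none passed, and the median was -0.20. Casp4 (caspase-11 in the mouse, a receptor of cytosolic lipopolysaccharide) was at -0.68 ± 0.18 and Pycard, the inflammasome adaptor, at -0.40 ± 0.11 (both limma adjusted p 0.164). Without Anakinra 2, Casp4 at -0.87 and Pglyrp2 at -1.10 passed the test (limma adjusted p 0.0266 and 0.0387).

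The carriers and regulators that act with NOD1 and NOD2 held the only call. All 13 were tested, with a median of 0.02. Slc46a2 encodes a carrier that brings NOD1-activating muropeptides into the cytosol of mouse keratinocytes. Its scaled log2 signal was -0.30, -0.17 and -0.39 on the Anakinra arrays, against -1.48, -1.55 and -1.37 on the PBS arrays, so every Anakinra culture was higher. The change was 1.18 ± 0.09 (limma adjusted p 0.00853). The call was lost in 9 of 19 alternatives. Among these were the fits without PBS 1 (limma adjusted p 0.0870), PBS 2 (0.0941) or Anakinra 1 (0.0510), and with slide as a block (0.0524). It was also lost with no filter (0.0617) and with per-array median scaling, where the change was 0.85 (0.867).

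The genes whose profile over the 6 arrays was nearest to that of Nod2 were Clca3a1, Ankk1 and Gsap, by the root-mean-square difference of centred log2 values, at 0.0750, 0.0857 and 0.0943. Those nearest to Tlr2 were Prnd, Uba7 and Col8a1, at 0.0865, 0.0929 and 0.0994. The measure takes the treatment difference and the array noise together.

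All 12 keratinocyte genes listed were above background on every array, and Krt1 and Krt10, keratins of the differentiating layers, were higher under Anakinra, at 2.35 ± 0.19 and 2.40 ± 0.26 (limma adjusted p 0.0111 and 0.0205). These and the marker calls that follow compare with 0.971% of all tested genes called higher and 0.801% called lower. Of 15 macrophage and dendritic cell markers 9 were tested and none passed, and their summed signal was 2420% to 2580% of the 75th percentile in Anakinra and 2559% to 2751% in PBS. Epcam, which epithelial cells also express, held 79.7% to 83.9% of that sum on each array, and the other 13 genes summed to 434% to 497% in Anakinra and 444% to 498% in PBS. Of this list 8 genes were above background on every array: Epcam, Csf1r, Cd68, Lyz2, Fcer1g, Tyrobp, Cd74 and H2-Ab1. Ptprc, the common leukocyte gene, was above background on 1 Anakinra and 1 PBS array, and Adgre1 on 1 Anakinra array and no PBS array. For both genes the Anakinra array was Anakinra 2. On that array 51.2% of the 10560 probes chosen as not above background on the other arrays were above it. Of the 9 tested, 2 had a positive change. Csf1r was at -0.33 ± 0.11 and Fcer1g at -0.40 ± 0.15 (limma adjusted p 0.228 and 0.276). Every Anakinra value of Csf1r was below every PBS value. Of 13 neutrophil and lymphocyte markers, 5 were tested and 1 was lower, S100a8, a gene that keratinocytes also express, at -0.73 ± 0.08 (limma adjusted p 0.0246). Its list summed to 11829% to 13451% in Anakinra and 17478% to 19057% in PBS, but S100a8 and S100a9 held 96.9% to 99.0% of it. S100a9, the partner of S100a8, was at -0.50 ± 0.09 (limma adjusted p 0.0660), and the other 9 genes summed to 264% to 364% in Anakinra and 190% to 243% in PBS. Thy1 alone held most of that remainder on every array, at 0.40 ± 0.14 (limma adjusted p 0.254). Of 10 fibroblast markers 9 were tested and 2 were higher, Lum at 1.43 ± 0.15 and Col3a1 at 0.95 ± 0.13 (limma adjusted p 0.0199 and 0.0400). The list summed to 926% to 1072% in Anakinra and 749% to 910% in PBS. Col1a1 and Col1a2 held most of that sum on every array. They did not pass, at 0.23 ± 0.14 and 0.18 ± 0.10 (limma adjusted p 0.497 and 0.434). Dcn of the same list was at -0.38 ± 0.07 (limma adjusted p 0.0700), with every Anakinra value below every PBS value. The change of Lum was 0.51 with normexp, and its call was lost with quantile scaling (limma adjusted p 0.378), per-array medians (0.867) and no filter (0.0889). None of the 5 tested of 8 endothelial markers and none of 9 melanocyte markers passed, and the melanocyte list summed to 10580% to 11453% in Anakinra and 9152% to 11004% in PBS. With arrays scaled to their 75th percentile all 9 melanocyte changes were positive, as were 8607 of the 16472 tested genes. The melanocyte median was 0.22, against 0.01 over all genes. Per-array median scaling moved the median change of all genes to -0.32, so the sign of small changes depends on the scaling. With 1 array left out, the limma adjusted p reached 0.0874 for Krt1, 0.152 for Krt10 and 0.156 for Lum, and it was 0.0574 to 0.217 for S100a8 and 0.0748 to 0.202 for Col3a1, so each of these calls was lost in at least 1 such fit. With slide as a block all 5 were lost (limma adjusted p 0.0595 for Krt1, 0.0933 for Krt10, 0.0951 for S100a8, 0.0551 for Lum and 0.142 for Col3a1). The part of these genes in the changes of Nod2 and Tlr2 was not tested. In RNA of whole cultures, fewer cells of a type and less RNA per cell cannot be told apart.

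**Figure D5:**
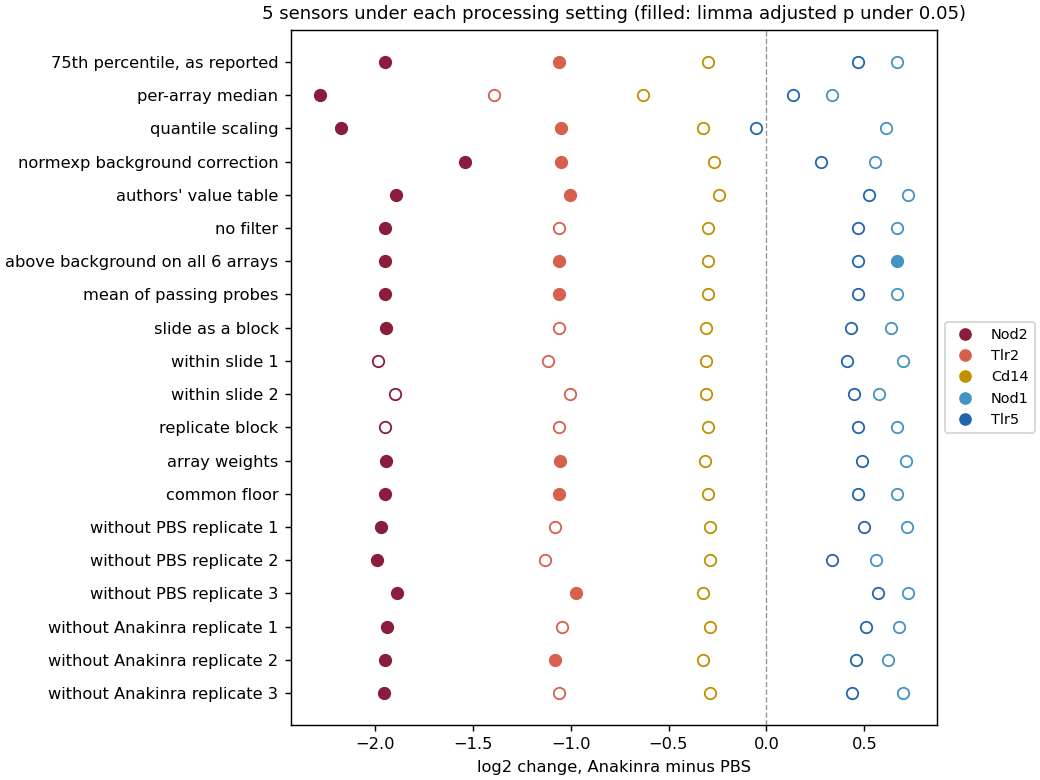
Log2 change, Anakinra minus PBS, of the 5 sensors whose groups did not overlap, under each way of processing the arrays, filled where the limma adjusted p was under 0.05. Nod2 lies between -2.28 and -1.54 and Tlr2 between -1.39 and -0.97 throughout.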

How the data were processed

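RNA of 3 Anakinra-treated and 3 PBS-treated keratinocyte cultures was measured on 6 one-colour Agilent arrays, grouped by the treatment in the labels. The deposited scanner files give every spot an intensity, which the authors obtained with Agilent Feature Extraction 9.5.3.1 and which is background-subtracted but not normalised between arrays, per the file headers. The spots' other flags (outlier, saturated, well above background) come from the same deposited files. The authors also deposited a table of log2 values. Each of its columns is the log2 of that intensity with 1 constant added, to within 0.000505, which settles scale and direction; how the constants were chosen is unknown. Its column medians were 5.74, 7.00 and 6.21 for Anakinra and 5.77, 5.83 and 6.22 for PBS.

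Here each array's log2 processed intensity was taken relative to its own 75th percentile. Control and outlier spots were left out and spots of a probe averaged. Probes were tested that had 2 or more values per group and were well above background throughout either group, which for repeated spots meant at least as many spots above as not. The brightest passing probe stood for a gene. Names came from RefSeq GRCm38.p6, where 23374 probes matched by accession, 6733 by symbol and 2919 by synonym, and 8148 kept the name in the file. limma 3.58.1 in R 4.3.3 (lmFit, eBayes, two-sided, Benjamini-Hochberg over 16472 genes) gave the changes, and folds are these changes turned back from log2. The script was tested on simulated data. All members are described. Of each pathway list the called genes, or else the 2 with the smallest p, are named. Of each marker list the called genes are named, and for each called sensor the 3 nearest profiles. The other marker genes named, from Ptprc, Adgre1, Epcam and Csf1r to S100a9, Thy1, Col1a1, Col1a2 and Dcn, were named after their values were seen. The members and lists were chosen with earlier results of these data known. Alternatives were other scalings, filters and background correction, the authors' table, array weights, slide and replicate blocks, and each array left out. Precision is limited by having 3 arrays per group.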

Additional observations from a re-analysis of the deposited data

How the results depend on the processing

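Nod2 kept its sign in all 19 alternatives and its call in 16, with changes from -2.28 to -1.54. Tlr2 kept its sign in all 19 and its call in 9. The call of Tlr2 was also lost with per-array median scaling (limma adjusted p 0.258), no filter (0.0813) and slide as a block (0.0752). Both calls were lost within slide 1 (Nod2 0.174, Tlr2 0.245), within slide 2 (0.999 for each) and with the replicate block. Relative to the median of all genes, per-array median scaling gave Nod2 a change of -1.96.

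The counts of genes called higher and lower were 160 and 132. They were 338 and 241 for genes above background on all arrays, 229 and 188 with array weights, 196 and 170 with normexp, 196 and 159 with a common floor (chosen after seeing the data), 184 and 163 with quantile scaling, 7 and 29 with no filter, 8 and 49 with per-array medians, 23 and 41 with slide as a block, and 0 and 0 within either slide, where 1 residual degree of freedom remained. Leaving out 1 array gave 1 to 97 higher and 7 to 137 lower. Sensors called lower were 2, but 1 with no filter, per-array medians or slide as a block, 0 within either slide, and 1 to 2 with 1 array left out (probes 0 to 2). Sensors called higher were 0, and 1 with the filter on all arrays. Pathway genes called higher were 1, but 2 with that filter, array weights, the authors' table, the common floor, normexp or quantile scaling, 0 with no filter, per-array medians, slide as a block or within either slide, and 0 to 1 with 1 array left out. Pathway genes called lower were 0, but 1 with that filter, per-array medians or quantile scaling, 2 with array weights, and 0 to 3 with 1 array left out.

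Signs turned for 5 genes, none of which had passed the test. Tlr9 was -0.32 with per-array medians, -0.014 with quantile scaling, -0.0039 with normexp and -0.043 within slide 2. Tlr5 was -0.052 with quantile scaling. Tlr4 was 0.064 with normexp, 0.056 with the authors' table, 0.58 within slide 2 and 0.33 with the common floor. Tlr3 was 0.36 within slide 2. Cd36 was -0.019 with per-array medians, -0.13 with quantile scaling and -0.014 within slide 1. With 1 array left out, Tlr9 ranged from -0.15 to 0.13, Tlr4 from -0.72 to 0.55 and Tlr3 from -0.37 to 0.050. The cause was not tested.

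The replicate block gave 0 calls in each direction (Nod2 adjusted p 0.111, Tlr2 0.221, by limma). The labels do not say whether the replicate numbers pair cultures, and the main fit did not pair them. Deviations of same-numbered arrays from their group means correlated at 0.41, -0.49 and -0.21. Those of differently numbered arrays ran from -0.67 to 0.70. With 3 arrays per group, these correlations cannot settle whether the cultures were paired.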
